A study of Mus musculus with 12 samples.

Results

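The DNA replication machinery was followed here as 51 genes whose proteins recognise origins, load and start the replicative helicase, synthesise both strands, and rebuild chromatin behind the fork. The members were chosen by name and role, with no measured value in the rule but with earlier results of these data known, and all 51 were found among the 49315 genes of the count tables. RNA was sequenced from mouse embryonic fibroblasts, cells cultured from embryo connective tissue, after 24 h in rapamycin (20 ng/ml), Torin1 (250 nM), RapaLink-1 (10 nM) or the solvent DMSO. Each of these treatments had 3 libraries. The labels name no strain, genotype or embryo age, and all cells were grown in the same medium with serum. They do not say whether the libraries of a treatment came from separate cultures. The p-values thus measure the spread between these libraries, which may be technical. That spread was estimated largely over all genes together and not for each gene alone. All compounds inhibit mTOR, a kinase that couples nutrients and growth signals to cell growth. Rapamycin binds beside the kinase domain and blocks mainly mTOR complex 1, Torin1 competes with ATP in both mTOR complexes, and RapaLink-1 joins a rapamycin moiety to an ATP-competitive inhibitor. Torin1 and RapaLink-1 are called the kinase inhibitors here. The doses differed, so a difference between compounds is one at the doses used and not at a matched dose.

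Replication is prepared in G1, when the origin recognition complex (ORC), Cdc6 and Cdt1 load the ring of Mcm2 to Mcm7 onto DNA, and begins in S phase, when kinases help Cdc45 and the GINS complex to switch that ring into an active helicase. DNA polymerase alpha with primase then lays the primers, and polymerases delta and epsilon copy the strands on the sliding clamp Pcna. Rpa covers single strands, and Fen1 and Lig1 finish the lagging strand. Many of these genes are known targets of E2F transcription factors, which the retinoblastoma proteins restrain until cells commit to S phase. In RNA from whole cultures, fewer cells in S phase and less RNA per cell cannot be told apart.

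Libraries held 30495065 to 38809352 counts with rapamycin, 31328365 to 37762480 with Torin1, 30075870 to 36206209 with RapaLink-1 and 34696405 to 39423703 with DMSO. The fibroblast label was checked against 10 marker genes, in counts-per-million units (CPM, on library sizes scaled with TMM factors). Of these, 9 averaged at least 1 CPM and Lum averaged 0.726 CPM. Their summed level ran from 15000 to 15300 CPM with rapamycin, from 12900 to 13000 CPM with Torin1, from 13000 to 13200 CPM with RapaLink-1 and from 17300 to 17600 CPM with DMSO. Most of this sum was Col1a2, Col1a1 and Vim. Single fibroblast markers moved in both directions. Their log2 fold changes over DMSO ran from -0.96 to 0.63 with rapamycin, from -1.28 to 1.51 with Torin1 and from -2.56 to 1.07 with RapaLink-1. All 6 epithelial markers averaged under 1 CPM, as did 3 of 4 endothelial, 5 of 6 leukocyte, 3 of 4 nervous system and 4 of 4 skeletal muscle markers. Cd3e, Myod1 and Myog had no count in any library. The 6 epithelial markers summed to 0.726 to 1.12 CPM with rapamycin, 0.907 to 1.76 CPM with Torin1, 0.576 to 0.947 CPM with RapaLink-1 and 0.923 to 1.02 CPM with DMSO. For the 4 of them that could be tested, log2 fold changes over DMSO ran from -0.57 to 3.97 with Torin1, where 1 was called higher. With RapaLink-1 they ran from -1.66 to 2.41, where 1 was called lower and 1 higher. The 4 endothelial markers summed to 1.12 to 1.51 CPM with rapamycin, 2.24 to 2.38 CPM with Torin1, 2.45 to 2.77 CPM with RapaLink-1 and 0.788 to 1.48 CPM with DMSO, and their only member that could be tested, Kdr, rose with Torin1 (1.26 on the log2 scale) and RapaLink-1 (1.52). The 6 leukocyte markers, mostly Cd68, summed to 2.19 to 3.52 CPM with rapamycin, 3.90 to 4.19 CPM with Torin1, 3.59 to 4.01 CPM with RapaLink-1 and 2.82 to 3.34 CPM with DMSO. Of these, 2 could be tested over DMSO. Their log2 fold changes ran from 0.092 to 1.64 with Torin1 and from 0.0028 to 1.65 with RapaLink-1, with 1 called higher in each. With rapamycin they ran from -0.15 to 0.54, without a call. The 4 muscle markers summed to 0.223 to 0.383 CPM with rapamycin, 0.483 to 0.652 CPM with Torin1, 0.352 to 0.576 CPM with RapaLink-1 and 0.184 to 0.208 CPM with DMSO. For the 2 tested, 1 was called higher over DMSO with each compound. Log2 fold changes ran from 0.089 to 2.00 with rapamycin, from 0.41 to 3.22 with Torin1 and from 1.15 to 1.42 with RapaLink-1. The 4 nervous system markers, mostly Tubb3, summed to 10.7 to 11.6 CPM with rapamycin, 3.04 to 4.15 CPM with Torin1, 2.87 to 4.15 CPM with RapaLink-1 and 13.5 to 17.9 CPM with DMSO. The only 1 of them tested was called lower over DMSO with each compound, at -0.51 with rapamycin, -2.15 with Torin1 and -2.25 with RapaLink-1. The part of these markers in the results below was not tested.

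RefSeq promoter windows of the GRCm38.p6 build, which run from 250 bases before to 50 bases after a gene's start in RefSeq, were given for 42 of the 51 members. That start can differ from the start of the gene as counted, and 12 of the 54 windows, of 9 members, lay wholly inside the counted gene. No window was given for Mcm4, Gmnn, Gins1, Gins2, Gins4, Prim2, Pole, Rfc2 and Tipin. The E2F motifs TTTCCCGC and TTTGGCGC were searched on both strands. At least 1 match was found for 14 of the 42 members (33.3%), against 486 of 27025 genes with a window (1.80%), and in 14 of the members' 54 windows (25.9%), against 1.565% of 32851 windows. The members' windows were richer in G and C, with a median of 62.3% against 52.7% over all windows. The 14 genes were Cdc6, Cdt1, Dnmt1, Gins3, Mcm3, Mcm5, Mcm6, Mcm7, Orc3, Pola1, Pold1, Pold3, Pole2 and Rfc3. The matching windows of Cdc6, Dnmt1 and Mcm7 lay wholly inside the gene as counted, with RefSeq starts 350, 7265 and 539 bases inside it. CCAAT, the NF-Y motif, was found for 24 of 42 members (57.1%), against 41.1% of genes, and TTTGAA, the core of the CHR element of cell cycle promoters, for 8 of 42 (19.0%), against 20.2% of genes. The E2F letters hold neither CCAAT nor TTTGAA on either strand, and a match is a run of letters and not a shown binding site. The windows below, 5′ to 3′ on the gene's strand with E2F matches in capitals, are of Cdc6 (chr11:98907901-98908200, plus strand), which had the largest fall of all members and whose RefSeq start lies 350 bases inside the gene as counted, Mcm6 (chr1:128359656-128359955, minus strand), with 2 matches, Orc3 (chr4:34614893-34615192, minus strand), which had the smallest fall with both kinase inhibitors, and Pcna (chr2:132253131-132253430, minus strand), the clamp, whose window holds no match.
Cdc6: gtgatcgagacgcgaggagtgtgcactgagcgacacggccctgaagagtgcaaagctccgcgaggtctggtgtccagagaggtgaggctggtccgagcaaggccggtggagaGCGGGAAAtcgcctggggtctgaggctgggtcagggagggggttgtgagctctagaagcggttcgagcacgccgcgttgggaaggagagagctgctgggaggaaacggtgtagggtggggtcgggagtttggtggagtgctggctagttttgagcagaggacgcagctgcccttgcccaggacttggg
Mcm6: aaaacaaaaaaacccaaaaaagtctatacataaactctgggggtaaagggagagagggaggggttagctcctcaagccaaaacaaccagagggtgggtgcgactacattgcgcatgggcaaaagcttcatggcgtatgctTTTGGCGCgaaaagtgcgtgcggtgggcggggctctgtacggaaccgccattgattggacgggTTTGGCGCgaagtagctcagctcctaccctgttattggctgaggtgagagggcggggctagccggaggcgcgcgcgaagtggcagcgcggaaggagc
Orc3: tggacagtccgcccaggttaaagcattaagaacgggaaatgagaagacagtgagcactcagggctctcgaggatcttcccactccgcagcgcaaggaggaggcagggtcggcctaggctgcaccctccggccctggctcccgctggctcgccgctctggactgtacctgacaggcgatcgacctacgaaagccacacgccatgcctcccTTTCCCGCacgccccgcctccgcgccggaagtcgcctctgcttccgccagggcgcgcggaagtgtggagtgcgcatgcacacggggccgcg
Pcna: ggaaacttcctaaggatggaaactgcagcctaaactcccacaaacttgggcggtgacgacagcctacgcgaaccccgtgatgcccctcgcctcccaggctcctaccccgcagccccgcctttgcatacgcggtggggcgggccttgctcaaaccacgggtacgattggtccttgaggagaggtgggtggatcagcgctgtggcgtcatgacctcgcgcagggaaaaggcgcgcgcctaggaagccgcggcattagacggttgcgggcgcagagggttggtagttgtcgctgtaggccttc
The median log2 fold change, Torin1 over DMSO, was -1.09 for the 14 members with an E2F match and -1.19 for the 28 without one, given as a description with no test.

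Relative to DMSO, rapamycin lowered most replication genes slightly, and both kinase inhibitors lowered all of them, many by more than 2-fold. With rapamycin 48 of 51 members fell, 1 rose and 2 were not called, by edgeR's quasi-likelihood test at a Benjamini-Hochberg adjusted p under 0.05 over 15917 genes. The background was 32.2% of all genes called lower and 27.5% called higher, and with upper-quartile scaling it was 25.5% lower and 34.4% higher. The members' median log2 fold change was -0.35, against 0.0043 over all genes tested, and their values ran from -0.63 to 0.13. With Torin1 all 51 members fell, where 38.3% of all genes were called lower and 39.8% higher, and with upper-quartile scaling 31.4% lower and 48% higher. Their median was -1.14, against 0.038 over all genes, with a range from -2.24 to -0.080. With RapaLink-1 all 51 fell as well, at a median of -1.02 against 0.026 over all genes and a range from -1.84 to -0.080. The RapaLink-1 background was 37.9% lower and 38.7% higher, and with upper-quartile scaling 30.3% lower and 47.9% higher. With upper-quartile scaling the members that fell numbered 46 with rapamycin and 50 with each kinase inhibitor, where Orc3 changed sign and was not called, and Cdc7 joined Gins4 as called higher with rapamycin. A fall of at least 2-fold was called for 30 members with Torin1 (background 6.35%), for 28 with RapaLink-1 (background 5.77%) and for 0 with rapamycin (background 0.528%). The 3 comparisons share the DMSO libraries, so their directions are not independent of one another. All 51 members passed the filter on low counts, and all differed among the 4 treatments (background 85.3%), the highest adjusted p of edgeR's quasi-likelihood test being 0.000133, for Orc3.

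**Figure D1:**
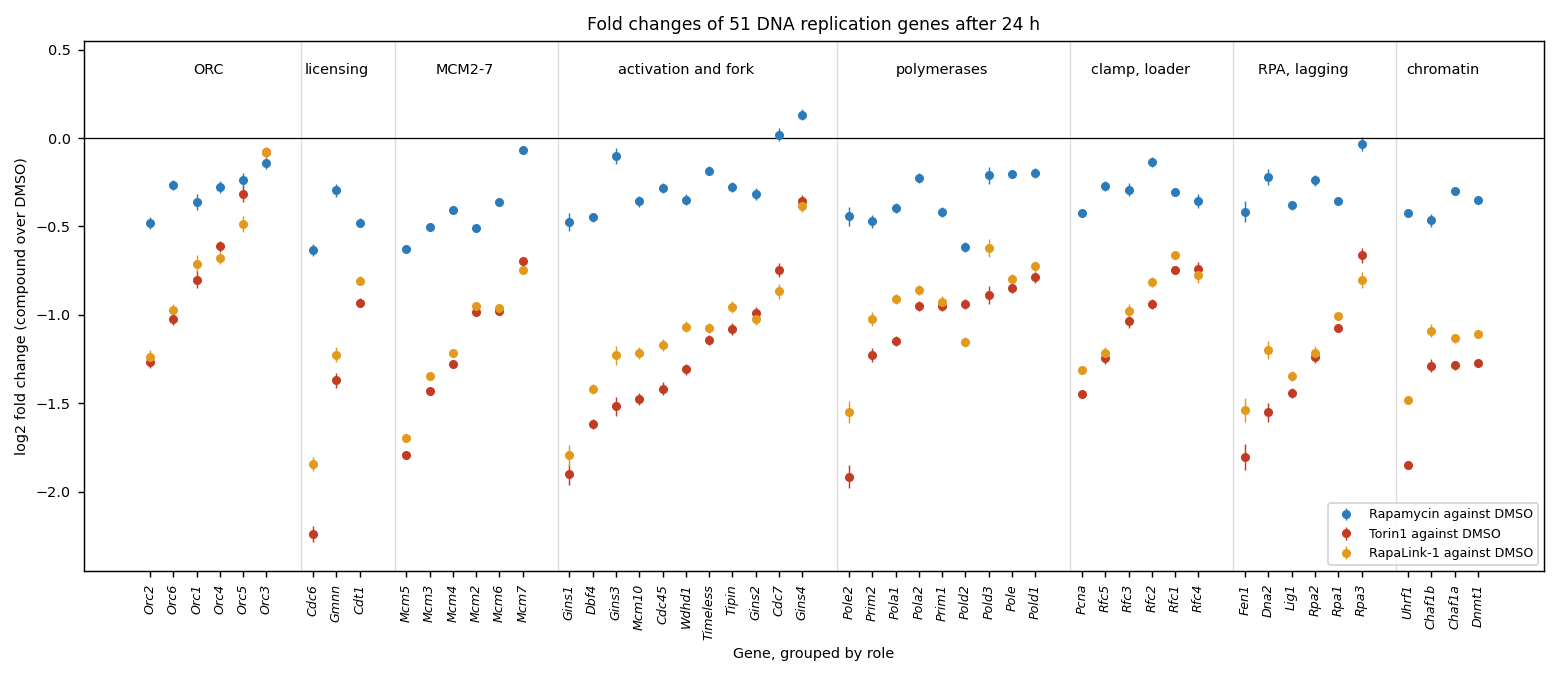
Each point is the log2 fold change of a replication gene, compound over DMSO, with its standard error, for rapamycin, Torin1 and RapaLink-1; genes are grouped by role and ordered within a role by the Torin1 value. The rapamycin points lie between -0.63 and 0.13, and the Torin1 points reach down to -2.24 for Cdc6.

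The separation was also visible library by library. With rapamycin all 3 libraries lay below all 3 DMSO libraries for 48 members and above them for 1, while 2 overlapped (63% of all genes did not overlap). With Torin1 and with RapaLink-1 all 51 members lay below DMSO without overlap, where 78.5% of all genes for Torin1 and 77.6% for RapaLink-1 did not overlap in either direction. Together the 51 genes took 0.4983% to 0.4998% of all counts with rapamycin, 0.2762% to 0.2795% with Torin1, 0.3024% to 0.3032% with RapaLink-1 and 0.6002% to 0.6041% with DMSO.

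ORC marks the origins and holds the loaders there, and its 6 genes had the smallest median fall of all roles with each compound. The median log2 fold change over DMSO of the 6 genes was -0.27 with rapamycin, -0.71 with Torin1 and -0.69 with RapaLink-1, and all 6 fell with each compound. Orc6, the subunit with the highest level per length, had 72.9, 70.6 and 71.7 CPM with rapamycin, 39.8, 43.5 and 43.5 CPM with Torin1 and 41.4, 45.7 and 44.6 CPM with RapaLink-1, against 84.7, 88.8 and 85.3 CPM with DMSO. The compounds ordered its libraries without overlap between rapamycin and DMSO or between the kinase inhibitors and rapamycin, and its fold change was -0.27 ± 0.029 with rapamycin, -1.02 ± 0.032 with Torin1 and -0.97 ± 0.032 with RapaLink-1 (log2 ± SE). Orc2, a core subunit, had the largest fall of the set. It stood at 43.7, 46.3 and 45.4 CPM with rapamycin, 27.4, 26.2 and 25.2 CPM with Torin1 and 26.6, 26.5 and 27.1 CPM with RapaLink-1, against 61.7, 63.6 and 63.8 CPM with DMSO, so that the libraries of each kinase inhibitor were below those of rapamycin, and these below DMSO. Its log2 fold change was -0.48 ± 0.034 with rapamycin, -1.27 ± 0.037 with Torin1 and -1.24 ± 0.037 with RapaLink-1. Orc3, another core subunit, differed little, with 60.9, 60.5 and 60.3 CPM with rapamycin, 65.3, 63.3 and 61.5 CPM with Torin1 and 62.9, 61.7 and 65.2 CPM with RapaLink-1, against 67.1, 67.8 and 65.9 CPM with DMSO. Its rapamycin libraries were the lowest, and the Torin1 and RapaLink-1 libraries lay between them and DMSO. The falls of Orc3 were -0.14 ± 0.030 with rapamycin, -0.080 ± 0.030 with Torin1 and -0.080 ± 0.030 with RapaLink-1; both kinase inhibitor values changed sign with upper-quartile scaling (0.046 with Torin1, 0.058 with RapaLink-1) and when genes under a mean of 5 CPM were left out (0.011 with Torin1, 0.0057 with RapaLink-1). Without Torin1 replicate 3 the Torin1 call of Orc3 was lost, at -0.067, and without RapaLink-1 replicate 2 the RapaLink-1 call, at -0.063. Of exonic bases, 10.8% of Orc1, 29.8% of Orc2, 7.80% of Orc4 and 6.93% of Orc6 are shared with other annotated genes. Without a stated strand setting the counts of these members are uncertain.

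The 3 licensing genes fell with each compound, at a median of -0.48 with rapamycin, -1.37 with Torin1 and -1.22 with RapaLink-1. Cdc6, the ATPase that joins ORC to load the helicase, lies at chr11:98907801-98923940 in GRCm38 and fell more than any other member with each compound. It had 41.3, 43.5 and 40.9 CPM with rapamycin, 13.6, 13.3 and 14.3 CPM with Torin1 and 17.1, 18.7 and 18.3 CPM with RapaLink-1, against 65.7, 63.1 and 65.6 CPM with DMSO. Every Torin1 library was below every RapaLink-1 library, and both sets were far below rapamycin and DMSO. Its log2 fold change was -0.63 ± 0.035 with rapamycin, -2.24 ± 0.043 with Torin1 and -1.84 ± 0.041 with RapaLink-1. Cdt1, its partner in loading, showed the smallest fall of the set with the kinase inhibitors, at 94.01, 92.3 and 92.00 CPM with rapamycin, 67.3, 69.4 and 66.7 CPM with Torin1 and 75.2, 72.9 and 73.8 CPM with RapaLink-1, against 125, 131 and 132 CPM with DMSO. None of the 4 treatments overlapped for Cdt1, and its log2 fold changes were -0.48 ± 0.025 with rapamycin, -0.93 ± 0.026 with Torin1 and -0.81 ± 0.026 with RapaLink-1. Gmnn, the inhibitor of Cdt1, fell at -0.30 ± 0.038 with rapamycin, -1.37 ± 0.044 with Torin1 and -1.22 ± 0.043 with RapaLink-1.

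The 6 subunits of the MCM ring act in equal numbers in the loaded hexamer, and their genes had fold changes from -0.63 to -0.066 with rapamycin, from -1.79 to -0.69 with Torin1 and from -1.70 to -0.74 with RapaLink-1. All 6 fell with each compound, at a median of -0.46 with rapamycin, -1.13 with Torin1 and -1.09 with RapaLink-1. Mcm5, at chr8:75109569-75128439, fell most, with 234, 222 and 228 CPM with rapamycin, 104, 101 and 101 CPM with Torin1 and 110.3, 108 and 108 CPM with RapaLink-1, against 350.1, 347 and 359.6 CPM with DMSO. Its treatments did not overlap, and its log2 fold change was -0.63 ± 0.019 with rapamycin, -1.79 ± 0.021 with Torin1 and -1.70 ± 0.021 with RapaLink-1. Mcm4, the subunit with the highest mean level per length over all libraries, had 231, 235 and 232 CPM with rapamycin, 128, 128 and 126 CPM with Torin1 and 133, 133 and 132 CPM with RapaLink-1, against 310.1, 308 and 306 CPM with DMSO. Mcm4 changed by -0.41 ± 0.018 with rapamycin, -1.28 ± 0.020 with Torin1 and -1.21 ± 0.020 with RapaLink-1, again without overlap between compound and DMSO libraries. Mcm7, a subunit of the same ring, moved least and had 275, 278 and 272 CPM with rapamycin, 182, 174 and 178 CPM with Torin1 and 169, 172 and 174 CPM with RapaLink-1, against 287, 285 and 291 CPM with DMSO. Its rapamycin libraries were only just below DMSO, whereas those of the kinase inhibitors were well below both. The Mcm7 fold change was -0.066 ± 0.018 with rapamycin (adjusted p = 0.000936, edgeR's quasi-likelihood test), -0.69 ± 0.019 with Torin1 and -0.74 ± 0.019 with RapaLink-1, and the rapamycin call was lost with upper-quartile scaling (-0.0033) and with the 5 CPM filter (-0.0080). Mcm2 changed by -0.51 with rapamycin, -0.98 with Torin1 and -0.95 with RapaLink-1. Mcm3 changed by -0.51 with rapamycin, -1.43 with Torin1 and -1.34 with RapaLink-1, and Mcm6 by -0.36 with rapamycin, -0.98 with Torin1 and -0.96 with RapaLink-1. In transcripts-per-million units (TPM, which divide by exon length), Mcm7 was the highest of the 6 with Torin1 and RapaLink-1, at 127 TPM in each, and Mcm5 was the highest with DMSO, at 278 TPM. Mcm7 shares 8.70% of its exonic bases with other genes.

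**Figure D2:**
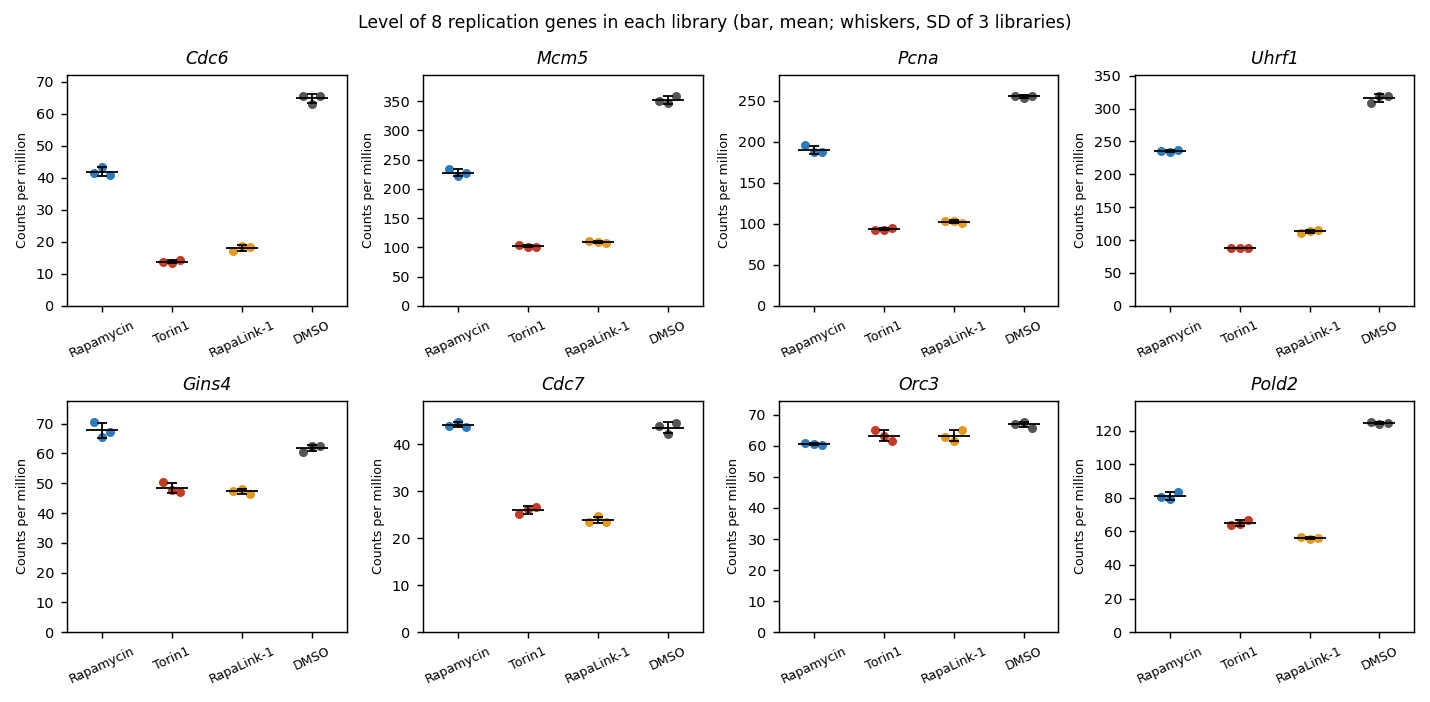
Level of 8 replication genes in CPM in each library, for rapamycin, Torin1, RapaLink-1 and DMSO; points are libraries, bars the mean and whiskers the SD of 3 libraries. Cdc6, Mcm5, Pcna and Uhrf1 lie lowest with Torin1, Gins4 lies highest with rapamycin, Orc3 differs little, and Pold2 lies lowest with RapaLink-1.

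Genes that turn the loaded ring into a moving fork held both some of the largest falls and the only rise against DMSO, to which upper-quartile scaling added Cdc7 with rapamycin. Of these 11 genes, 9 fell, 1 rose and 1 was not called with rapamycin (median log2 fold change -0.28), and all 11 fell with Torin1 (median -1.31) and with RapaLink-1 (median -1.07). The 4 GINS subunits, which act as a single complex in the active helicase, did not move alike with rapamycin. Gins4, at chr8:23226616-23237659 and the GINS gene with the highest level per length, rose with rapamycin and fell with both kinase inhibitors. It had 70.6, 65.5 and 67.1 CPM with rapamycin, 50.3, 47.8 and 46.95 CPM with Torin1 and 47.4, 47.97 and 46.5 CPM with RapaLink-1, against 60.6, 62.5 and 62.5 CPM with DMSO. All rapamycin libraries were above DMSO and all Torin1 and RapaLink-1 libraries below it. The Gins4 fold change was 0.13 ± 0.031 with rapamycin (adjusted p = 7.49e-05, edgeR's quasi-likelihood test), -0.36 ± 0.033 with Torin1 and -0.39 ± 0.033 with RapaLink-1, and the direct differences were -0.49 ± 0.032 for Torin1 over rapamycin and -0.52 ± 0.032 for RapaLink-1 over rapamycin. Gins1 had the largest fall of the 11 genes with both kinase inhibitors, with 20.9, 21.6 and 20.6 CPM with rapamycin, 8.34, 8.59 and 6.62 CPM with Torin1 and 9.05, 8.58 and 7.70 CPM with RapaLink-1, against 28.4, 30.5 and 28.8 CPM with DMSO. Its kinase inhibitor libraries overlapped each other and were under 10 CPM, below those of rapamycin, which were in turn below DMSO. Gins1 changed by -0.47 ± 0.049 with rapamycin, -1.90 ± 0.061 with Torin1 and -1.80 ± 0.060 with RapaLink-1. Gins2 changed by -0.32 ± 0.032 with rapamycin, -0.99 ± 0.035 with Torin1 and -1.03 ± 0.035 with RapaLink-1, but 67.3% of its exonic bases are shared with another gene. Gins3, also named after its values were seen, was at the edge of the threshold with rapamycin, at -0.10 ± 0.045 (adjusted p = 0.0448, edgeR's quasi-likelihood test), a call lost without any 1 of the 6 libraries compared, with values from -0.11 to -0.087. It was also lost with upper-quartile scaling (-0.037), with the 5 CPM filter (-0.042), with the DESeq2 test (-0.11) and when the 2 treatments were fitted alone (-0.077). Gins3 fell with both kinase inhibitors, at -1.52 ± 0.054 with Torin1 and -1.23 ± 0.052 with RapaLink-1.

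Of the kinase Cdc7 and its activator Dbf4, which together phosphorylate the loaded ring, Dbf4 fell with rapamycin and Cdc7 was not called; the difference between the 2 genes was not tested. Cdc7, named after its values were seen, had 43.9, 44.7 and 43.7 CPM with rapamycin, 25.02, 26.1 and 26.6 CPM with Torin1 and 23.5, 24.7 and 23.4 CPM with RapaLink-1, against 43.9, 42.2 and 44.4 CPM with DMSO. Its rapamycin and DMSO libraries overlapped, and the fold change was 0.018 ± 0.036 (adjusted p = 0.696, edgeR's quasi-likelihood test), but 0.081 and called higher with upper-quartile scaling (adjusted p = 0.0464) and -0.0041 without DMSO replicate 2. Torin1 gave -0.75 ± 0.040 and RapaLink-1 -0.87 ± 0.041. Dbf4 fell with all 3 compounds, at -0.45 ± 0.025 with rapamycin, -1.62 ± 0.028 with Torin1 and -1.42 ± 0.028 with RapaLink-1. Cdc45, a part of the active helicase, fell at -0.28 with rapamycin, -1.42 with Torin1 and -1.17 with RapaLink-1, with 9.28% of its exonic bases shared with another gene. Mcm10, which helps to activate it, fell at -0.36 with rapamycin, -1.47 with Torin1 and -1.22 with RapaLink-1. The fork stabiliser Timeless fell at -0.18 with rapamycin, -1.14 with Torin1 and -1.07 with RapaLink-1. Its partner Tipin fell at -0.28 with rapamycin, -1.08 with Torin1 and -0.96 with RapaLink-1, and Wdhd1, which links the helicase to polymerase alpha, at -0.35 with rapamycin, -1.31 with Torin1 and -1.07 with RapaLink-1.

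All 9 polymerase and primase genes fell with each compound, at a median log2 fold change of -0.40 with rapamycin, -0.95 with Torin1 and -0.91 with RapaLink-1. Pole2, the B subunit of the leading strand polymerase epsilon (chr12:69201779-69228190), fell most with both kinase inhibitors, with 17.2, 19.5 and 18.1 CPM with rapamycin, 7.05, 6.64 and 6.09 CPM with Torin1 and 8.10, 7.79 and 9.44 CPM with RapaLink-1, against 24.4, 24.3 and 25.6 CPM with DMSO. The kinase inhibitor libraries were all under 10 CPM and every RapaLink-1 library was above every Torin1 library. Its fold change was -0.44 ± 0.052 with rapamycin, -1.92 ± 0.065 with Torin1 and -1.55 ± 0.061 with RapaLink-1, against -0.20 ± 0.024 with rapamycin, -0.85 ± 0.026 with Torin1 and -0.80 ± 0.026 with RapaLink-1 for Pole, the catalytic subunit of the same enzyme. Pold2, the accessory subunit of the lagging strand polymerase delta (chr11:5872180-5878292), had the highest level per length of the 9 genes. Pold2 had 80.6, 79.3 and 83.5 CPM with rapamycin, 63.7, 64.3 and 66.8 CPM with Torin1 and 56.8, 55.3 and 55.9 CPM with RapaLink-1, against 125, 124 and 124 CPM with DMSO. It was lowest with RapaLink-1, and the 4 treatments did not overlap. Pold2 had the largest rapamycin fall of the polymerase genes, at -0.62 ± 0.026, and changed by -0.94 ± 0.027 with Torin1 and -1.15 ± 0.027 with RapaLink-1. Pold1, the catalytic subunit, fell least with Torin1 and had 72.01, 72.3 and 71.7 CPM with rapamycin, 47.9, 48.5 and 47.3 CPM with Torin1 and 48.1, 49.7 and 51.8 CPM with RapaLink-1, against 81.1, 80.2 and 86.6 CPM with DMSO. Its rapamycin libraries lay below DMSO and above both kinase inhibitors, at -0.20 ± 0.029 with rapamycin, -0.79 ± 0.031 with Torin1 and -0.73 ± 0.031 with RapaLink-1. The polymerase alpha and primase genes Pola1, Pola2, Prim1 and Prim2, which lay the primers, had fold changes from -0.47 to -0.23 with rapamycin, from -1.23 to -0.95 with Torin1 and from -1.02 to -0.86 with RapaLink-1.

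The sliding clamp and the 5 genes of its loader, replication factor C, fell with each compound, at a median of -0.30 with rapamycin, -0.99 with Torin1 and -0.90 with RapaLink-1. Pcna, the clamp that tethers polymerases to DNA (chr2:132249162-132253314), fell most of the 6, with 196, 188 and 187 CPM with rapamycin, 92.6, 92.8 and 95.2 CPM with Torin1 and 103, 104 and 101 CPM with RapaLink-1, against 256, 253 and 256 CPM with DMSO. Its treatments did not overlap, and it changed by -0.42 ± 0.020 with rapamycin, -1.45 ± 0.022 with Torin1 and -1.31 ± 0.022 with RapaLink-1. Per length Pcna was the highest of all 51 members with rapamycin (262 TPM), RapaLink-1 (140.2 TPM) and DMSO (335 TPM), and second to Mcm7 with Torin1 (123 TPM). Rfc4, a loader subunit, fell least with Torin1 and had 32.5, 37.2 and 35.4 CPM with rapamycin, 26.8, 27.2 and 26.3 CPM with Torin1 and 26.3, 26.6 and 25.6 CPM with RapaLink-1, against 43.9, 45.7 and 44.8 CPM with DMSO. The Torin1 and RapaLink-1 libraries of Rfc4 overlapped, and its fold changes were -0.35 ± 0.038 with rapamycin, -0.74 ± 0.041 with Torin1 and -0.78 ± 0.041 with RapaLink-1. Rfc5, another loader subunit, fell at -0.27 with rapamycin, -1.24 with Torin1 and -1.22 with RapaLink-1. Rfc1, the large subunit, fell at -0.31 with rapamycin, -0.74 with Torin1 and -0.66 with RapaLink-1. Rfc2, Rfc4 and Rfc5 share 15.1%, 12.6% and 10.7% of their exonic bases with other genes.

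Single-strand binding and lagging strand genes fell at a median of -0.30 with rapamycin, where 5 of 6 fell and Rpa3 was not called, and all 6 fell with Torin1 (median -1.34) and RapaLink-1 (median -1.21). Rpa1, the large subunit of the Rpa trimer, had 244, 247 and 237 CPM with rapamycin, 149, 149.8 and 144 CPM with Torin1 and 153, 156 and 154 CPM with RapaLink-1, against 312, 307 and 312 CPM with DMSO. It changed by -0.36 ± 0.019 with rapamycin, -1.08 ± 0.020 with Torin1 and -1.01 ± 0.020 with RapaLink-1, with no overlap between compound and DMSO libraries. Rpa3, the smallest subunit of that trimer, had 35.6, 34.9 and 34.4 CPM with rapamycin, 24.3, 21.6 and 21.99 CPM with Torin1 and 20.4, 20.4 and 20.6 CPM with RapaLink-1, against 35.3, 34.3 and 37.6 CPM with DMSO. Rapamycin and DMSO overlapped for Rpa3 at -0.032 ± 0.040 (adjusted p = 0.512, edgeR's quasi-likelihood test), a value that turned positive with upper-quartile scaling (0.031), with the 5 CPM filter (0.026) and without DMSO replicate 3 (0.0043), and the kinase inhibitors gave -0.66 ± 0.044 with Torin1 and -0.80 ± 0.045 with RapaLink-1. Fen1, the nuclease that trims flaps between Okazaki fragments, had 16.4, 13.7 and 13.4 CPM with rapamycin, 5.47, 5.53 and 5.61 CPM with Torin1 and 6.92, 6.69 and 6.43 CPM with RapaLink-1, against 18.8, 20.3 and 18.97 CPM with DMSO. Fen1 had the largest fold change of the 6 with each compound, -0.42 ± 0.058 with rapamycin, -1.80 ± 0.072 with Torin1 and -1.54 ± 0.069 with RapaLink-1, although 84.2% of its exonic bases are shared with other genes, so that its count is uncertain. Dna2, a nuclease and helicase for long flaps, had 26.96, 29.2 and 28.3 CPM with rapamycin, 11.7, 10.3 and 11.5 CPM with Torin1 and 14.4, 14.3 and 14.04 CPM with RapaLink-1, against 33.4, 32.3 and 32.5 CPM with DMSO. Every RapaLink-1 library of Dna2 was above every Torin1 library and below rapamycin, and it changed by -0.22 ± 0.043 with rapamycin, -1.55 ± 0.052 with Torin1 and -1.20 ± 0.049 with RapaLink-1. Lig1, the ligase that seals the fragments, fell at -0.38 with rapamycin, -1.44 with Torin1 and -1.35 with RapaLink-1, with 5.79% of its exonic bases shared with another gene.

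The 4 genes that restore nucleosomes and DNA methylation behind the fork fell with each compound, at a median of -0.39 with rapamycin, -1.29 with Torin1 and -1.12 with RapaLink-1. Uhrf1, which reads hemimethylated DNA and brings Dnmt1 to it (chr17:56303321-56323486), had 235, 235 and 237 CPM with rapamycin, 87.6, 88.3 and 87.6 CPM with Torin1 and 111, 114 and 115 CPM with RapaLink-1, against 309, 319.7 and 319 CPM with DMSO. All treatments were apart, and it changed by -0.42 ± 0.019 with rapamycin, -1.85 ± 0.021 with Torin1 and -1.48 ± 0.020 with RapaLink-1. Dnmt1, the maintenance methyltransferase (chr9:20907209-20959888), had 409, 409 and 414 CPM with rapamycin, 216, 218 and 216 CPM with Torin1 and 248, 239.7 and 242 CPM with RapaLink-1, against 522, 525 and 525 CPM with DMSO. Dnmt1 changed by -0.35 ± 0.016 with rapamycin, -1.27 ± 0.017 with Torin1 and -1.11 ± 0.017 with RapaLink-1, again with no overlap between treatments. Chaf1a, a subunit of the histone chaperone CAF-1, fell at -0.30 with rapamycin, -1.28 with Torin1 and -1.13 with RapaLink-1. Chaf1b of the same chaperone fell at -0.47 with rapamycin, -1.29 with Torin1 and -1.09 with RapaLink-1. Of exonic bases, 18.7% of Chaf1a are shared with another gene.

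Summed per length, the 51 genes came to 4103 ± 4.22 TPM with rapamycin, 2246 ± 8.18 TPM with Torin1, 2449 ± 2.77 TPM with RapaLink-1 and 4963 ± 25.1 TPM with DMSO (SD, n = 3 each). The MCM ring was the largest share, at 1016 TPM with rapamycin, 556 TPM with Torin1, 592 TPM with RapaLink-1 and 1289 TPM with DMSO. Levels within a complex were uneven: in DMSO Orc5 had 15.7 TPM and Orc6 110.2 TPM, and Pold3 had 17.98 TPM and Pold2 207 TPM. The lengths used cover all annotated exons of a gene and not only the transcripts expressed, which limits every ranking per length. In CPM the DMSO means were closer, 30.6 for Orc5 and 86.25 for Orc6, and 26.2 for Pold3 and 124.5 for Pold2. The TPM ratio of the highest to the lowest licensing gene, Cdt1 over Cdc6, was 3.69 with rapamycin, 8.23 with Torin1, 6.83 with RapaLink-1 and 3.32 with DMSO.

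Setting the kinase inhibitors against rapamycin directly, most members were lower with Torin1 and with RapaLink-1. Torin1 gave lower levels than rapamycin for 49 of 51 members and higher levels for 0 (background 33.2% lower and 34.2% higher), at a median log2 fold change of -0.78 against 0.019 over all genes. The 2 without a call were Orc3, at 0.063 ± 0.031, and Orc5, another core ORC subunit, at -0.074 ± 0.047. RapaLink-1 gave lower levels than rapamycin for 50 members and higher levels for 0, at a median of -0.71 against 0.0084 over all genes. The background was 33% lower and 32% higher, and with upper-quartile scaling 27.1% lower and 39.6% higher. Orc3 was the member without a call, at 0.063 ± 0.031, and both of its values passed the threshold as higher with upper-quartile scaling, at 0.13 for Torin1 and 0.14 for RapaLink-1. Cdc6 again had the largest difference for Torin1 over rapamycin, -1.61 ± 0.046, and Gins1 for RapaLink-1 over rapamycin, -1.32 ± 0.063.

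RapaLink-1 at 10 nM and Torin1 at 250 nM gave close but not equal levels. For RapaLink-1 over Torin1, 28 members were higher and 5 lower, and 18 were not called, by edgeR's quasi-likelihood test. Among all genes 16.7% were called higher and 16.4% lower. All 3 RapaLink-1 libraries lay above all 3 Torin1 libraries for 30 members and below them for 6 (42.2% of all genes did not overlap). The median difference was small, 0.090 on the log2 scale, against -0.0020 over all genes. The largest differences were those of Cdc6 at 0.40 ± 0.055, Pole2 at 0.37 ± 0.081, Uhrf1 at 0.37 ± 0.024 and Dna2 at 0.35 ± 0.062, and the highest of their adjusted p-values was 7.56e-05, for Pole2. These 4 genes act in loading, leading strand synthesis, methylation upkeep and flap cleavage. The 5 lower members were Pold2 at -0.22 ± 0.030, Orc5 at -0.17 ± 0.048, Rpa3 at -0.14 ± 0.049, Cdc7 at -0.12 ± 0.045 and Mcm7 at -0.050 ± 0.020. The calls of Pold2 and Orc5 held in every alternative run, whereas those of Rpa3, Cdc7 and Mcm7 were each lost without at least 1 of the 6 libraries. Among the higher members, the calls of Gmnn, Mcm4, Tipin, Pola2, Rpa1 and Lig1 were each lost without at least 1 of these libraries. For the 18 members without a call, the 95% intervals of the difference reached from -0.14 (Orc4) to 0.26 (Gins1), and the interval of Orc3 was -0.060 to 0.061. The intervals, unlike the calls, were not adjusted for many tests, and that of Timeless, 0.0061 to 0.13, held only positive values. Timeless was called higher with DESeq2 size factors, with upper-quartile scaling and without Torin1 replicate 2, and Orc6 without RapaLink-1 replicate 1.

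**Figure D3:**
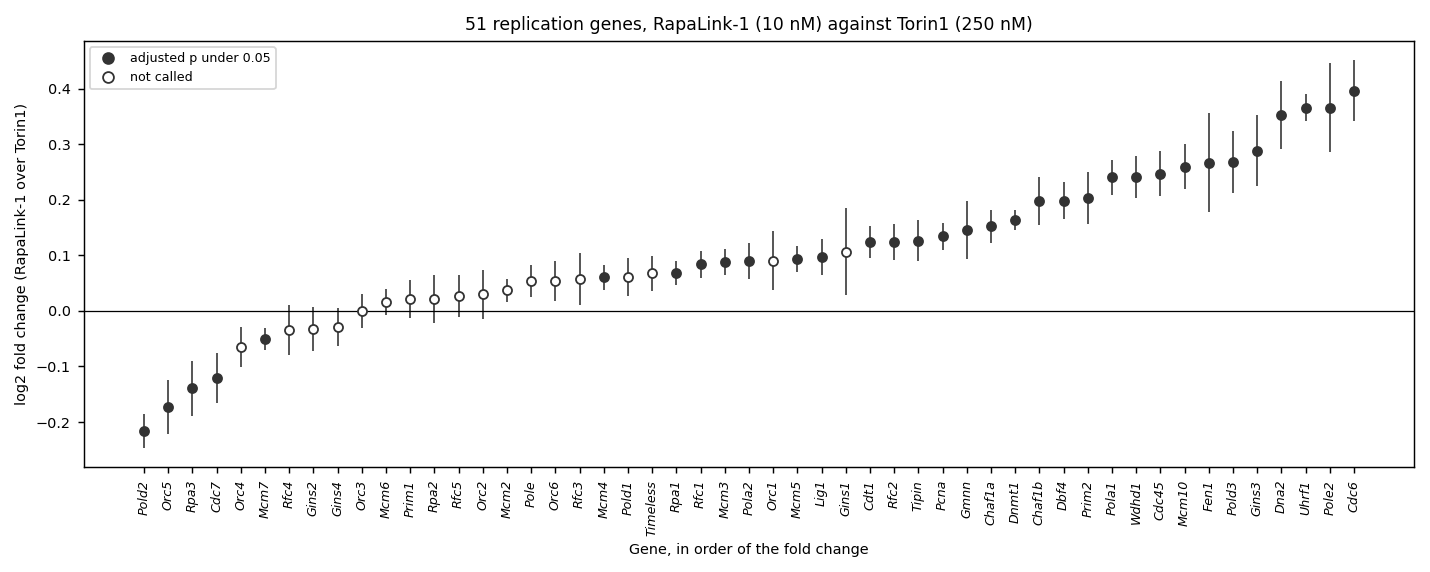
Points are log2 fold changes of the 51 genes, RapaLink-1 over Torin1, with their standard errors, in rising order; filled points passed an adjusted p of 0.05 and open points did not. Pold2 lies lowest at -0.22 and Cdc6 highest at 0.40.

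Of the members, 11 start head to head with another protein-coding gene within 1000 bases, where the 5′ ends could overlap by at most 200 bases. Pairs with a longer overlap were not counted. These neighbours were taken by position alone, after the data had been seen, and are given as a description. Mcm4 starts 466 bases from Prkdc, the catalytic subunit of a DNA repair kinase, and changed by -0.41 ± 0.018 with rapamycin, -1.28 ± 0.020 with Torin1 and -1.21 ± 0.020 with RapaLink-1, beside 0.036 ± 0.041 with rapamycin, -0.11 ± 0.042 with Torin1 and -0.12 ± 0.042 with RapaLink-1 for Prkdc, whose rapamycin value was not called. Gins1 starts 659 bases from the lipase gene Abhd12, which had 0.040 ± 0.033 with rapamycin, -0.17 ± 0.034 with Torin1 and -0.10 ± 0.034 with RapaLink-1, the rapamycin value not being called. Dbf4 fell while Slc25a40, a mitochondrial carrier gene 134 bases away, rose at 0.33 ± 0.043 with rapamycin, 0.16 ± 0.044 with Torin1 and 0.30 ± 0.044 with RapaLink-1. Pole and its neighbour Pxmp2, a peroxisomal membrane protein gene 120 bases away, also moved in opposite directions, Pxmp2 rising at 0.46 ± 0.14 with rapamycin, 0.64 ± 0.13 with Torin1 and 0.43 ± 0.14 with RapaLink-1. In the next pair both genes fell with each compound: Prpf38a, a splicing factor gene 87 bases from Orc1, changed by -0.37 ± 0.033 with rapamycin, -0.70 ± 0.035 with Torin1 and -0.71 ± 0.035 with RapaLink-1, beside -0.36 ± 0.045 with rapamycin, -0.80 ± 0.048 with Torin1 and -0.71 ± 0.047 with RapaLink-1 for Orc1. Umad1, 115 bases from Rpa3, had -0.095 ± 0.068 with rapamycin, -0.52 ± 0.073 with Torin1 and -0.54 ± 0.073 with RapaLink-1, the rapamycin value again without a call. Rars2, which encodes a mitochondrial arginine tRNA synthetase and starts 13 bases from Orc3, had small values like Orc3, -0.11 ± 0.043 with rapamycin, -0.012 ± 0.042 with Torin1 and -0.10 ± 0.043 with RapaLink-1, of which the Torin1 value was not called. Vps35, a retromer gene whose 5′ end overlaps that of Orc6, fell with rapamycin by as much as Orc6, -0.27 ± 0.018, and had 0.0072 ± 0.018 with Torin1 (adjusted p = 0.712, edgeR's quasi-likelihood test) and 0.019 ± 0.018 with RapaLink-1 (adjusted p = 0.316). Smyd4, which starts 109 bases from Rpa1, had -0.10 ± 0.058 with rapamycin, -0.23 ± 0.059 with Torin1 and -0.27 ± 0.059 with RapaLink-1, without a call for rapamycin. Tmem258, whose 5′ end overlaps that of Fen1, had 0.073 ± 0.035 with rapamycin, -0.20 ± 0.036 with Torin1 and -0.36 ± 0.037 with RapaLink-1, again without a call for rapamycin. Socs4, 74 bases from Wdhd1, fell at -0.20 ± 0.031 with rapamycin, -0.38 ± 0.032 with Torin1 and -0.30 ± 0.032 with RapaLink-1.

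**Figure D4:**
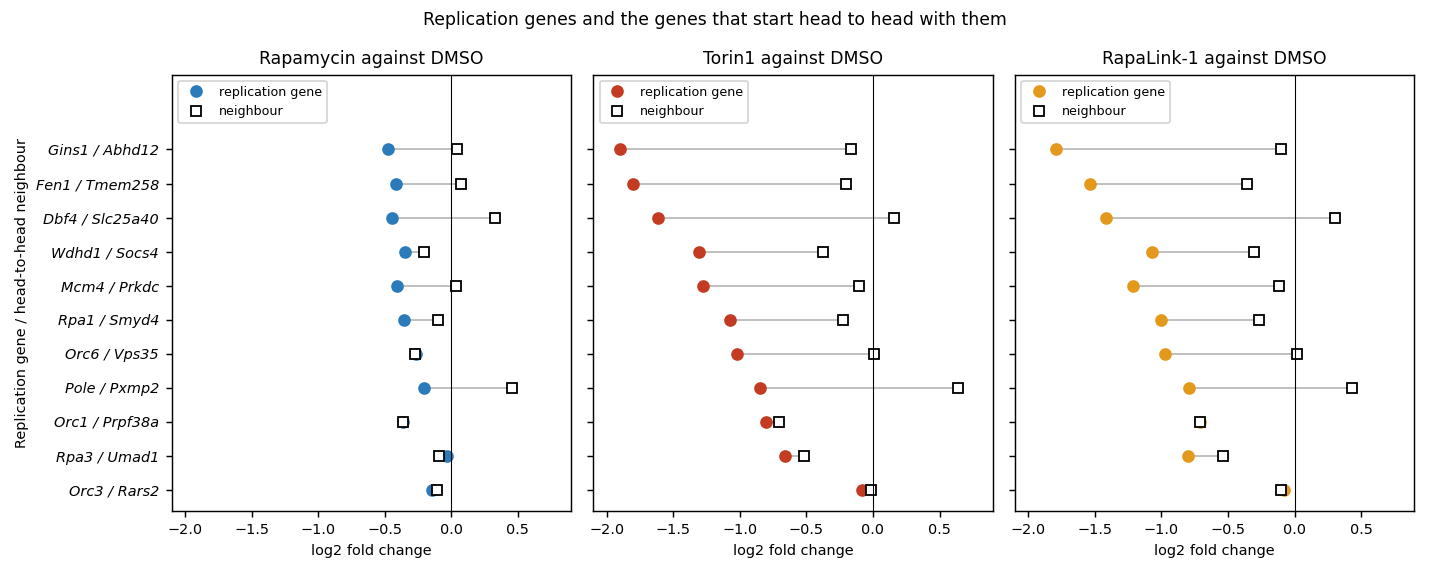
Log2 fold change over DMSO of 11 replication genes (filled circles) and of the genes that start head to head with them (open squares), for rapamycin, Torin1 and RapaLink-1. With Torin1 the members lie between -1.90 and -0.080 and the neighbours between -0.70 and 0.64.

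Genes around the replication machinery were counted in lists of further replication, nucleotide, E2F and mitotic genes. Those named from each list had its largest rises and falls called with Torin1 over DMSO, at most 2 of each, and are not typical of the list. The background for each count against DMSO is that given above, 32.2% lower and 27.5% higher with rapamycin, 38.3% lower and 39.8% higher with Torin1 and 37.9% lower and 38.7% higher with RapaLink-1. Of 43 further replication genes tested, 34 fell and 1 rose with rapamycin, and 42 fell and 1 rose with Torin1 and with RapaLink-1, at medians of -0.25 with rapamycin, -0.97 with Torin1 and -0.81 with RapaLink-1. The gene that rose was Pold4, the smallest subunit of polymerase delta, at 0.41 ± 0.069 with rapamycin, 1.02 ± 0.063 with Torin1 and 1.00 ± 0.064 with RapaLink-1, opposite to the other polymerase delta subunits Pold1, Pold2 and Pold3. Ccne1, the cyclin E that drives entry into S phase, fell at -0.38 with rapamycin, -2.44 with Torin1 and -2.24 with RapaLink-1. The histone chaperone gene Asf1b fell at -0.30 with rapamycin, -1.96 with Torin1 and -1.65 with RapaLink-1. Of 11 nucleotide supply genes, 10 fell and 1 rose with rapamycin, 9 fell and 2 rose with Torin1, and 9 fell and 1 rose with RapaLink-1, at medians of -0.27 with rapamycin, -1.23 with Torin1 and -1.25 with RapaLink-1. Tk1, the S phase thymidine kinase, fell at -0.36 with rapamycin, -2.34 with Torin1 and -2.03 with RapaLink-1. Rrm2, the S phase subunit of ribonucleotide reductase, fell at -0.31 with rapamycin, -1.98 with Torin1 and -1.46 with RapaLink-1. Rrm2b, the p53-induced form of that subunit, rose at 0.14 with rapamycin, 0.51 with Torin1 and 0.72 with RapaLink-1. Dctd, the dCMP deaminase, had -0.28 ± 0.030 with rapamycin, 0.085 ± 0.029 with Torin1 and -0.046 ± 0.029 with RapaLink-1, of which the RapaLink-1 value was not called.

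In the E2F and retinoblastoma family, 7 of 13 genes fell and 4 rose with rapamycin, and 10 fell and 3 rose with each kinase inhibitor. The share that rose with rapamycin was near its background of 27.5%. The family had fold changes at medians of -0.24 with rapamycin, -0.76 with Torin1 and -0.61 with RapaLink-1. E2f2, an activator of S phase genes, fell at -0.60 with rapamycin, -2.69 with Torin1 and -2.21 with RapaLink-1. E2f8, a repressor made in S phase, fell at -0.40 with rapamycin, -1.87 with Torin1 and -1.63 with RapaLink-1. Rb1, which restrains the activators, rose at 0.64 with rapamycin, 0.31 with Torin1 and 0.28 with RapaLink-1, and its relative Rbl2 at 0.13 with rapamycin, 0.19 with Torin1 and 0.22 with RapaLink-1. Of 30 G2 and mitosis genes, 24 fell and 2 rose with rapamycin, and all 30 fell with Torin1 and with RapaLink-1, at medians of -0.23 with rapamycin, -1.36 with Torin1 and -1.11 with RapaLink-1. The mitotic kinase gene Aurka fell at -0.47 with rapamycin, -1.81 with Torin1 and -1.49 with RapaLink-1. The kinetochore gene Nuf2 fell at -0.23 with rapamycin, -1.72 with Torin1 and -1.46 with RapaLink-1. For RapaLink-1 over Torin1, 29 of the 30 mitosis genes were higher (background 16.7%), at a median of 0.25, beside the replication genes' 0.090.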

How the data were processed

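RNA of 12 libraries, 3 for each of rapamycin, Torin1, RapaLink-1 and DMSO, was compared as grouped by the treatment label. The deposited values are whole-number read counts per gene, 1 table for each library; per the file headers, the authors ran featureCounts. The submitters' processing notes name GRCm38, Trimmomatic 0.36, STAR 2.5.2b, Subread 1.5.2 and DESeq2. Not given in the sources used are the strand setting, annotation release and RNA selection. Members whose exons overlap another gene are therefore uncertain: 17 do, 13 of them over more than 5% of their exonic bases.

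Gene symbols came from GENCODE M21. The members, roles and other lists were chosen with earlier results of these data known. A misspelt symbol in the list of further replication genes (Claspn, where Clspn was meant) matched no gene, so Clspn was not counted. This left 44 of 45, of which 43 were tested. Counts were fitted in edgeR 4.0.16 (R 4.3.3) with filterByExpr, TMM scaling and a robust quasi-likelihood model of all 12 libraries with treatment as its only term. This left 15917 genes and 8 residual degrees of freedom, with a median prior of 154.2 and a biological coefficient of variation of 1.48%. All adjusted p-values of genes are Benjamini-Hochberg values of its two-sided test over these genes, and standard errors are the log2 fold change over the square root of F. CPM used the TMM-scaled library sizes, and TPM the exon lengths of the tables. The exact permutation test of 3 against 3 libraries cannot go below 0.1 and was not used. The fit was also run on simulated counts in which few genes changed. Many genes were called in the data, so that run cannot show how the scaling behaves there. Libraries of a treatment differed by more than sampling noise. Members named by rule were the highest per length and the most and the least changed with Torin1 in each role. The rule also took any that rose against DMSO, and those with a RapaLink-1 over Torin1 difference of at least 0.3. Other members given with values, such as Gmnn, Dbf4, Cdc45, Lig1 and Chaf1a, were named outside this rule. DESeq2 1.42.0, other scalings and filters, a replicate block, fits of the compared libraries alone and leaving out each library were alternatives. The promoter windows are RefSeq's, of GRCm38.p6.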

Additional observations from a re-analysis of the deposited data

How the results depend on the processing

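With upper-quartile factors the median of all genes moved up by 0.063 for rapamycin, 0.13 for Torin1 and 0.14 for RapaLink-1 over DMSO on the log2 scale. The members' medians were then -0.28 for rapamycin, -1.02 for Torin1 and -0.89 for RapaLink-1 over DMSO, and -0.72 for Torin1 and -0.63 for RapaLink-1 over rapamycin. The members called higher then numbered 2 for rapamycin over DMSO, where Cdc7 joined Gins4, and 1 each for Torin1 and RapaLink-1 over rapamycin, where it was Orc3. With genes under a mean of 5 CPM left out, the medians over DMSO were -0.29 for rapamycin, -1.05 for Torin1 and -0.94 for RapaLink-1, and again 1 member was higher for Torin1 and for RapaLink-1 over rapamycin. The fold change of Orc3 changed sign: Torin1 over DMSO gave 0.0462 with upper-quartile factors and 0.0111 under the 5 CPM limit, and RapaLink-1 over DMSO gave 0.0575 and 0.0057 under these settings. For RapaLink-1 over Torin1 the members called lower numbered 3 with no filter on low counts, 2 with the DESeq2 test and 2 to 4 when 1 library was left out at a time. Members called higher in that comparison numbered 28 in the main fit and 23 to 28 when 1 library was left out, with 23 without Torin1 replicate 3. With a replicate block, the members lower were 48 for rapamycin, 51 for Torin1 and 51 for RapaLink-1 over DMSO, and no call count moved by more than 1.5 times. No pairing of libraries by number was seen: none of 18 same-numbered pairs of libraries correlated over 0.1 in their deviations (-0.0391 to 0.0587), and 4 of 12 libraries were closest to their own number. A weak shared effect could go unseen in this check. Restricting the set to the 38 members with at most 5% exonic overlap, an alternative added after seeing the data, gave 35 members lower over DMSO for rapamycin, 38 for Torin1 and 38 for RapaLink-1. Over all alternatives, 3905 values of single members kept their direction and side of the threshold, 44 lost the call, 11 gained it, 4 (of Orc3) changed sign with the call lost, and 14 changed sign without a call in either fit, among them Rpa3 for rapamycin over DMSO in 3 alternatives; the cause of these changes was not tested. Depth limits the lowest members most: Fen1, Pole2 and Gins1 had under 10 CPM with each kinase inhibitor.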
